A study of Mus musculus with 6 samples.

Results

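The genes described here are 8 genes that mark dendritic cells or are made by them: Ccl17, Ccl22, Ccr7, Flt3, Zbtb46, Batf3, Fscn1 and Cd209a. They were found by symbol among the 54532 genes of the deposited expression table, and each symbol matched 1 gene. The genes were chosen with the difference between the study's groups already known, so their differences are given as a description without p-values. Where the rule for calling genes is applied to them, the calls are descriptive too. RNA had been sequenced from mouse bone marrow-derived macrophages (BMDMs) after co-culture with ID8, an ovarian cancer line of the mouse. To ask how tumour cells exposed to a platinum drug act on myeloid cells, the tumour cells had first received cisplatin at 40 µM (3 libraries) or PBS (3 libraries). The marrow came from C57BL/6 mice aged 6 to 8 weeks. The methods describe monocytes cultured in medium with serum and name no growth factor. The duration of the co-culture and the means of separating BMDMs from ID8 cells are not given in the sources used here. The study's methods speak of biological replicates in general, but nothing in the labels states that the 3 libraries of a group came from separate cultures or animals. Unless they did, p-values measure only the spread between these samples, which may be technical.

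Dendritic cells take up antigen in tissues, mature, and carry it to lymph nodes, where they activate T cells. Conventional dendritic cells arise from marrow progenitors under Flt3 ligand, and cells with dendritic features also arise from monocytes, mainly under GM-CSF and IL-4. Ccl17 and Ccl22 encode chemokines that share the receptor Ccr4 and attract regulatory and type 2 helper T cells. Both are produced by mature and monocyte-derived dendritic cells and by macrophages activated through IL-4. Ccr7 encodes the receptor that guides maturing dendritic cells to lymph nodes, and it is also carried by B cells and naive T cells.

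Ccl22 and Ccl17 lie close together on chromosome 8. Their promoters are shown because these chemokine genes had the largest differences among the 8 genes. The sequences are those of RefSeq on GRCm38.p6, plus strand, limited to the bases before the gene start that the deposited table gives. Capitals mark 2 motifs found by search, the STAT6 site (TTC and GAA with 4 free bases between) and the PU.1 site GAGGAA, and the Ccl22 sequence held neither.
Ccl17 chr8:94810203-94810452: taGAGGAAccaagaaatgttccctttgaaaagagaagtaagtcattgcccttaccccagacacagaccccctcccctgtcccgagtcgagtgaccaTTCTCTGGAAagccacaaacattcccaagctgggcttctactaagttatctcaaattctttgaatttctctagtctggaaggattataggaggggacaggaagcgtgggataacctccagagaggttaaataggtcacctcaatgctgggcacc
Ccl22 chr8:94745434-94745589: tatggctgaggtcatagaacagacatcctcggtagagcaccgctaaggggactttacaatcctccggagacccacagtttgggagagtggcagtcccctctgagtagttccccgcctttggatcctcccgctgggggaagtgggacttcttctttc

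In the windows of 250 bases before to 50 after the RefSeq start, searched on both strands, the Ccl17 promoter held 1 STAT6 site, beginning at -154. Such a site was present in 6.95% of the 32851 promoters of that length. The Ccl17 window also held the PU.1 site GAGGAA at -248, a motif found in 28.3% of all promoters. Among the 7 genes with a promoter in the table (all but Ccr7), GAGGAA was also found in Batf3 at -153. The AP-1 site TGANTCA was found in Zbtb46 at -61, against 7.81% of all promoters. The Zbtb46 window (181424339 to 181424638) lies inside the deposited gene, whose end on the minus strand is 181459426, so it surrounds an internal start. The Batf3 window, from 191098164, likewise lies inside its gene, which starts at 191097847. The NF-κB consensus (8.46% of promoters) and the interferon element of 2 GAAA repeats with 2 free bases between (3.44%) matched none of the 7 windows. No match overlapped another in these windows.

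Levels are given as FPKM, fragment counts scaled to gene length and library depth, so that genes can be compared with each other. Reads recovered from the FPKM values summed to between 15776238 and 17924686 per library. Over the 13441 genes tested, Pearson's r was 0.984 to 0.989 between libraries within a group and 0.871 to 0.877 between groups. These genes had at least 1 FPKM in at least 3 of the 6 libraries. Of the 8 genes, 7 met this filter and Cd209a did not. Flt3, Batf3 and Ccl17 met it through the cisplatin libraries alone and Zbtb46 through the PBS libraries alone. Of the other genes named below, Mrc1, Clec10a, Apol7c, Ccr9 and Klk1 also met it through the cisplatin libraries alone. Cx3cl1, Ifi205 and Batf2 met it through the PBS libraries alone. For all of these a low level in the other group came with the filter, and the counts of called genes include them. The labels name a macrophage, and its markers were strongly expressed in every library, with Lyz2 at 1161 ± 10.8 FPKM with PBS and 3459 ± 80.4 with cisplatin (SD, n = 3 each).

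All 8 genes differed between the groups without overlap of their libraries. In 7 of them the 3 cisplatin libraries were the higher ones, and in Zbtb46 they were the lower ones. Of the 13441 tested genes, 35.2% were separated with cisplatin higher and 37.2% with cisplatin lower. A gene was called where limma's adjusted p (Benjamini-Hochberg, over all tested genes) was below 0.05 and its log2 fold change reached 1 or -1. By this rule 6 of the 7 tested members were called higher. Over all tested genes 4.67% were called higher and 11.3% lower, 15.9% together, and nothing is read from these counts because the members were chosen on this contrast. The 7 tested members had a median log2 fold change of 1.06, against -0.00113 over all tested genes, and nothing is read from this for the same reason. As these are bulk samples, more cells of a type and more RNA per cell cannot be told apart.

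**Figure D1:**
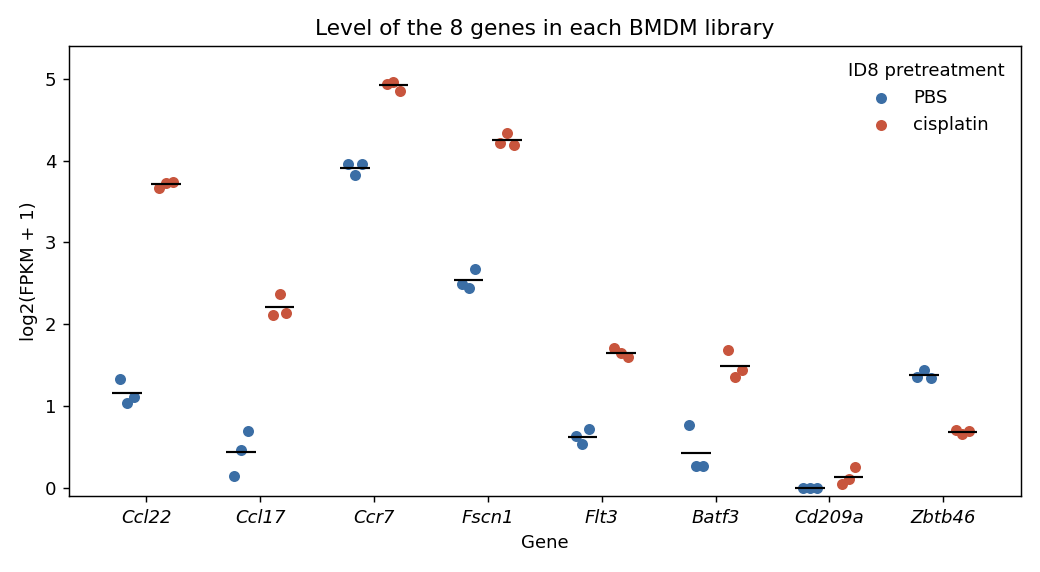
Level of each of the 8 genes in each library, as log2(FPKM + 1), with PBS libraries in blue, cisplatin libraries in red and the group mean as a black bar (n = 3 each). Of these, 7 genes lie higher with cisplatin and Zbtb46 lower, and Cd209a stays near 0 in both groups.

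The chemokine gene Ccl22 (ENSMUSG00000031779, chromosome 8, 94745590 to 94751699) was listed at 1.51, 1.05 and 1.16 FPKM in the PBS libraries and at 11.7, 12.2 and 12.4 FPKM in the cisplatin libraries. The lowest cisplatin library was thus far above the highest PBS library. Its mean went from 1.24 ± 0.238 to 12.1 ± 0.402 FPKM (SD, n = 3 each), a 9.75-fold difference, with a log2 fold change of 2.55 (SE 0.0854) on log2(FPKM + 1). The values rested on 38 to 62 reads per PBS library and 461 to 478 per cisplatin library.

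Ccl17 (ENSMUSG00000031780, chromosome 8, 94810453 to 94812036) was listed at 0.11, 0.375 and 0.627 FPKM with PBS and at 3.32, 4.15 and 3.42 FPKM with cisplatin. The groups did not overlap, and the PBS libraries varied among themselves by more than the cisplatin libraries in proportion to their level. The mean went from 0.371 ± 0.259 to 3.63 ± 0.453 FPKM (SD, n = 3 each), or 9.79-fold. Only 1, 3 and 5 reads stood behind the PBS values, against 29, 35 and 29 with cisplatin. The ratio of pooled reads per depth was 10.7, with a 95% exact interval of 5.41 to 24.2 that covers counting error only. On the log2(FPKM + 1) scale, which understates changes at such low levels, the difference was 1.77 (SE 0.157).

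Within a library Ccl22 was the more abundant of the pair. With cisplatin the Ccl22 level was 3.51, 2.94 and 3.64 times that of Ccl17 in replicates 1, 2 and 3. With PBS the ratio was 13.7, 2.8 and 1.86, a wide range that the few Ccl17 reads leave imprecise. The PBS ratios lay on both sides of the cisplatin ratios, and a difference between the groups was not tested.

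Between the 2 genes, which are 58754 bases apart, the table lists Cx3cl1 and the pseudogene Gnb1-ps3. Cx3cl1 (chromosome 8, 94772009 to 94782427) encodes fractalkine, a membrane-bound chemokine made by epithelial and endothelial cells. It fell from 6.56 ± 0.434 to 0.753 ± 0.171 FPKM (n = 3 each, SD, log2 fold change -2.11, limma adjusted p = 2.34e-06). Gnb1-ps3 was listed at 0 in all libraries. The middle of these 3 neighbouring chemokine genes therefore differed in the opposite direction to the outer 2.

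**Figure D2:**
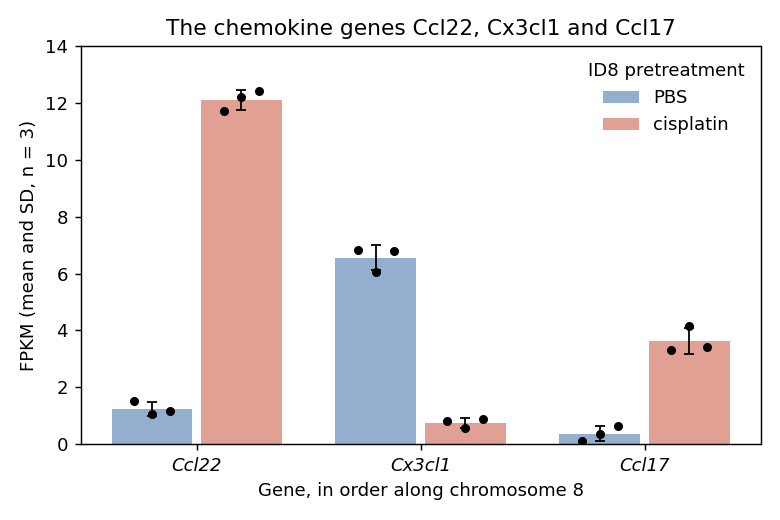
FPKM of Ccl22, Cx3cl1 and Ccl17, in their order along chromosome 8, as bars of the group mean with SD and the 3 libraries as points. Ccl22 (1.24 against 12.1 FPKM) and Ccl17 (0.371 against 3.63) are higher with cisplatin, and Cx3cl1 (6.56 against 0.753) is lower.

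The ligands' receptor and the other partners of the 8 genes were mostly at or near 0. Ccr4, the receptor of both chemokines, was at 0.0348 ± 0.0602 FPKM with PBS and 0.0843 ± 0.0306 with cisplatin (SD, n = 3 each). Ackr2, a scavenging receptor for inflammatory chemokines, was at 0.102 ± 0.0957 and 0.0512 ± 0.0108 FPKM. Dpp4, a peptidase that trims Ccl22, went from 6.29 ± 0.156 to 8.41 ± 0.549 FPKM, short of the fold change threshold (log2 fold change 0.37, limma adjusted p = 0.00113).

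Among the receptors, Ccr7 (ENSMUSG00000037944, chromosome 11, 99144196 to 99155077) was the most abundant of the 8 genes in both groups. It was listed at 14.6, 13.1 and 14.5 FPKM with PBS and at 29.7, 30.2 and 27.9 FPKM with cisplatin. The groups lay apart, and the spread within each was small. The mean went from 14.1 ± 0.814 to 29.2 ± 1.22 FPKM (SD, n = 3 each), a 2.08-fold difference and the smallest ratio among the 7 genes that were higher. Its log2 fold change of 1.004 (SE 0.0548) lay at the threshold itself. The Ccr7 ligand genes Ccl19 and Ccl21a were listed at 0 in every library, and the atypical Ccr7-ligand receptor gene Ackr4 was at 0.0389 ± 0.0196 and 0.108 ± 0.0263 FPKM.

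Flt3 (ENSMUSG00000042817, chromosome 5, 147330741 to 147400489) encodes the receptor tyrosine kinase on which dendritic cell progenitors depend, and which early marrow progenitors also carry. It was listed at 0.549, 0.447 and 0.647 FPKM with PBS and at 2.27, 2.14 and 2.02 FPKM with cisplatin. Every cisplatin library was above every PBS library, with 206 to 238 reads against 43 to 62. The mean went from 0.548 ± 0.1 to 2.14 ± 0.123 FPKM (SD, n = 3 each), 3.91-fold, with a log2 fold change of 1.02 (SE 0.0943). In the table's annotation Flt3 overlaps the antisense gene Gm26597, which had 1 read in PBS replicate 3 and 1 in cisplatin replicate 3 and was listed at 0 in the other 4 libraries. The ligand gene Flt3l was at 1.40 ± 0.167 and 1.53 ± 0.145 FPKM (log2 fold change 0.077, limma adjusted p = 0.496). Kit, a related receptor kinase of progenitors and mast cells, rose from 2.60 ± 0.151 to 9.07 ± 0.0695 FPKM (log2 fold change 1.48, limma adjusted p = 8.79e-07).

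Cd209a (ENSMUSG00000031494, chromosome 8, 3743397 to 3748984) encodes a C-type lectin related to human DC-SIGN that marks monocyte-derived dendritic cells. It was not found among the reads of any PBS library and had 1, 2 and 5 reads in the cisplatin libraries. These correspond to 0.0371, 0.0769 and 0.191 FPKM. Set against a floor of 3 reads over the PBS group, the cisplatin level was 2.77-fold higher. This value takes the cisplatin reads as exact and is not a lower bound. Its relatives Cd209b, Cd209d and Cd209f were likewise without a read in the PBS libraries and had 10, 6 and 7 reads in the cisplatin group. Counting could divide reads between these near copies, so each value is uncertain. Cd209c and Cd209g had reads in both groups, at no more than 0.0603 FPKM on average, and Cd209e was listed at 0. Icam2, which encodes an adhesion molecule that human DC-SIGN binds, rose from 4.23 ± 0.523 to 11.6 ± 1.16 FPKM (log2 fold change 1.27, limma adjusted p = 2.73e-05).

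The 2 transcription factor genes differed in opposite directions. Zbtb46 (ENSMUSG00000027583, chromosome 2, 181387762 to 181459426) encodes a zinc finger factor that separates conventional dendritic cells from other myeloid cells, and it is also expressed in endothelium. It was listed at 1.56, 1.71 and 1.54 FPKM with PBS and at 0.629, 0.58 and 0.619 FPKM with cisplatin. Here all cisplatin libraries were below all PBS libraries, the reverse of the other 7 genes. The mean went from 1.60 ± 0.0949 to 0.609 ± 0.026 FPKM (SD, n = 3 each), 2.63-fold lower, and rested on 665 reads with PBS and 259 with cisplatin over each group. The log2 fold change of -0.69 (SE 0.0884) was short of the threshold on the log2(FPKM + 1) scale. In 4 of the 14 alternatives Zbtb46 was called lower, with a log2 fold change of -1.26 at a pseudocount of 0.1, -1.07 after TPM rescaling, -1.19 after scaling to Y-linked genes and -1.30 on recovered reads with limma voom. Zbtb46 overlaps the small nuclear RNA gene Gm22708, which was listed at 0 in all 6 libraries. The related gene Zbtb45 was at 2.37 ± 0.184 and 3.71 ± 0.0553 FPKM (log2 fold change 0.49, limma adjusted p = 0.000617, not called).

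Batf3 (ENSMUSG00000026630, chromosome 1, 191097847 to 191108945) encodes an AP-1 family factor required for cross-presenting type 1 dendritic cells. It was listed at 0.708, 0.201 and 0.202 FPKM with PBS and at 2.21, 1.56 and 1.71 FPKM with cisplatin. PBS replicate 1, with 20 reads, stood above the other two, with 5 each, but below every cisplatin library. The mean went from 0.370 ± 0.292 to 1.83 ± 0.339 FPKM (SD, n = 3 each), 4.93-fold, and the ratio of pooled reads per depth was 5.05 (95% exact interval 3.39 to 7.75, counting error only). Its log2 fold change was 1.06 (SE 0.174). The related factor gene Batf was abundant in both groups, at 25.3 ± 3.59 and 26.3 ± 2.37 FPKM (log2 fold change 0.060, limma adjusted p = 0.648). Batf2, an interferon-inducible relative, fell from 1.85 ± 0.120 to 0.341 ± 0.108 FPKM (log2 fold change -1.09, limma adjusted p = 9.79e-05).

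Fscn1 (ENSMUSG00000029581, chromosome 5, 142960343 to 142973185) encodes fascin, an actin-bundling protein of the protrusions of mature dendritic cells that many tumour and mesenchymal cells also make. It was listed at 4.63, 4.43 and 5.37 FPKM with PBS and at 17.6, 19.2 and 17.3 FPKM with cisplatin. The groups were clearly apart. The mean went from 4.81 ± 0.495 to 18.05 ± 0.979 FPKM (SD, n = 3 each), 3.75-fold, with a log2 fold change of 1.71 (SE 0.074). The other fascin genes, Fscn2 and Fscn3, were at 0.0483 ± 0.0158 and 0.0284 ± 0.0272 FPKM with PBS and at 0.277 ± 0.188 and 0.0291 ± 0.0503 with cisplatin.

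The order of the levels differed between the groups mainly through Ccl22, Ccl17 and Zbtb46. With PBS it ran from Ccr7 through Fscn1, Zbtb46 and Ccl22 to Flt3, Ccl17 and Batf3, with Cd209a at 0. The ranges of Flt3 and Ccl17 overlapped, as did those of Ccl17 and Batf3, so these 3 could not be ordered. With cisplatin it ran Ccr7, Fscn1, Ccl22, Ccl17, Flt3, Batf3, Zbtb46 and Cd209a, and among neighbours only Flt3 and Batf3 overlapped. The summed level of the 8 genes was 21.4 to 24.1 FPKM with PBS and 65.6 to 70.0 with cisplatin. Ccr7 made up 60.3% to 61.7% of that sum with PBS and 42.5% to 44.0% with cisplatin. Against the 13441 tested genes, mean Ccl22 stood at percentile 7.23 with PBS and 66.2 with cisplatin. For Ccl17 these percentiles were 0.543 and 33.1, and for Zbtb46 they were 12.2 and 3.15. Ccl17 met the filter through the cisplatin libraries alone and Zbtb46 through the PBS libraries alone. Their low percentile in the other group therefore followed from the filter and is not a result.

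The genes whose profile over the 6 libraries lay nearest to Ccl22 were Cxcl3, Ccl6 and Mpo. Likeness was the Euclidean distance between log2(FPKM + 1) values centred on each gene's mean, and it was 0.173, 0.177 and 0.212 for these genes among 12855 compared. Cxcl3, a neutrophil-attracting chemokine gene, went from 27.99 ± 1.48 to 164 ± 4.79 FPKM, and the chemokine gene Ccl6 from 45.2 ± 1.83 to 263 ± 6.38 (SD, n = 3 each). The myeloperoxidase gene Mpo, of granulocyte precursors, went from 18.7 ± 0.590 to 121 ± 4.51 FPKM. The nearest to Ccl17 were Alox15, Papss2 and Fscn1, at distances of 0.173, 0.228 and 0.323. This scale understates changes at low levels, so likeness to Ccl17 depends on level and pseudocount. As ratios of mean FPKM, Ccl17 differed 9.79-fold and its neighbour Fscn1 3.75-fold. Ccl22, at 9.75-fold, was not among these neighbours. Alox15, which encodes a lipoxygenase that IL-4 induces in macrophages, went from 1.25 ± 0.377 to 6.495 ± 0.114 FPKM (SD, n = 3 each). The libraries form 2 groups, so no correlation is given.

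Other genes of the dendritic cell lineage moved in both directions. Of 32 listed, 24 were tested, 4 were called higher and 5 lower (16.7% and 20.8%, against 4.67% and 11.3% of all tested genes), and their median log2 fold change was 0.17. After scaling to Y-linked genes limma called 0 higher (3 were positive at an unadjusted p under 0.05, and voom without that scaling called 6) and 10 lower. Sirpa, a surface receptor of type 2 dendritic cells and macrophages, rose from 54.4 ± 0.417 to 132 ± 1.23 FPKM (SD, n = 3 each, limma adjusted p = 1.24e-07). Wdfy4, which is needed for cross-presentation and is also expressed in B cells, rose from 15.6 ± 0.436 to 38.8 ± 2.25 FPKM (adjusted p = 1.47e-06 in the same limma fit). The lectin gene Clec10a and the factor gene Zeb2 were also called higher, with log2 fold changes of 1.09 and 1.01 (limma adjusted p = 0.000182 and 2.67e-06).

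The genes of this list called lower were Ifi205, Esam, Cadm1, Klf4 and Nfil3. Ifi205, an interferon-inducible gene that marks type 1 dendritic cells, fell from 11.3 ± 0.758 to 0.361 ± 0.152 FPKM (n = 3 each, SD, log2 fold change -3.18, limma adjusted p = 4.45e-07). The adhesion genes Esam and Cadm1 had log2 fold changes of -1.57 and -1.55 (limma adjusted p = 9.98e-06 and 1.4e-06), and both are also expressed outside the immune system. Klf4 fell by 1.39 (adjusted p = 2.81e-07, limma). Nfil3, called with a log2 fold change of -1.14, encodes a factor needed for type 1 dendritic cells. The defining markers of type 1 dendritic cells were near 0, with Xcr1 at 0.0706 ± 0.0518 and 0.0676 ± 0.0146 FPKM and Clec9a at 0.371 ± 0.0794 and 0.519 ± 0.218 FPKM for PBS and cisplatin. Their libraries overlapped between the groups. Itgax, which encodes the dendritic cell marker CD11c, was at 1.62 ± 0.136 and 3.43 ± 0.236 FPKM, short of the fold change threshold (log2 fold change 0.76, limma adjusted p = 0.000138). The markers thus gave no single answer on the cell type label, with Flt3, Batf3 and Clec10a higher with cisplatin, Zbtb46 lower, and Xcr1, Clec9a and Cd209a near 0 in both groups, so the 8 genes are called here by their names.

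Genes of dendritic cell maturation included 5 that were called. Of 30 listed, 26 were tested, 4 were called higher and 1 lower (15.4% and 3.85%, against 4.67% and 11.3% of all tested genes), and their median log2 fold change was 0.085. After scaling to Y-linked genes the balance turned, with 1 called higher and 8 lower. Apol7c, an apolipoprotein L gene linked to antigen escape from dendritic cell phagosomes, had no read in the PBS libraries and 74, 65 and 65 in the cisplatin libraries. Set against 3 reads over the PBS group this was 70.5-fold higher, with the cisplatin reads taken as exact. The fitted log2 fold change of Apol7c had a limma adjusted p of 1.05e-05. The co-stimulatory genes Cd80 and Cd86 rose from 5.18 ± 0.732 to 12.2 ± 0.727 FPKM and from 2.85 ± 0.453 to 6.99 ± 0.223 FPKM (SD, n = 3 each, limma adjusted p = 5.49e-05 and 5.26e-05). Mreg, which encodes melanoregulin, rose with a log2 fold change of 1.05 (limma adjusted p = 1.94e-06). Cacnb3, a calcium channel subunit gene of migratory dendritic cells, fell from 26.2 ± 0.664 to 9.09 ± 0.645 FPKM (limma adjusted p = 1.18e-06). The 21 further tested genes of the list, including the maturation marker Cd83 (12.9 ± 0.603 and 12.8 ± 0.756 FPKM), were not called.

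Genes that respond to IL-4 or GM-CSF, or carry their signals, included genes called in both directions. Of 24 listed, 21 were tested, with 5 called higher and 2 lower (23.8% and 9.52%, against 4.67% and 11.3% of all tested genes) and a median log2 fold change of 0.074. After scaling to Y-linked genes 2 were called higher and 9 lower. Mrc1, the mannose receptor gene, had the largest rise, from 0.743 ± 0.180 to 11.3 ± 0.443 FPKM (n = 3 each, SD, log2 fold change 2.82, limma adjusted p = 4.61e-07). Clec7a, which encodes the β-glucan receptor dectin-1, rose with a log2 fold change of 1.80, Alox15 with 1.75 and the GM-CSF receptor chain gene Csf2ra with 1.24 (limma adjusted p = 6.04e-07, 1.94e-05 and 1e-05). Chil3, a chitinase-like protein gene, was also called higher. Il13ra1, a chain of the type II IL-4 receptor, fell from 68.2 ± 3.52 to 14.9 ± 1.98 FPKM (log2 fold change -2.13, limma adjusted p = 1.77e-06), and the transglutaminase gene Tgm2 fell by 1.55 on the log2 scale (limma adjusted p = 3.17e-06). Retnla, a classical IL-4 target of mouse macrophages, was listed at 0 in every library. Ccl24, another, had no read with PBS and 28 over the cisplatin group.

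**Figure D3:**
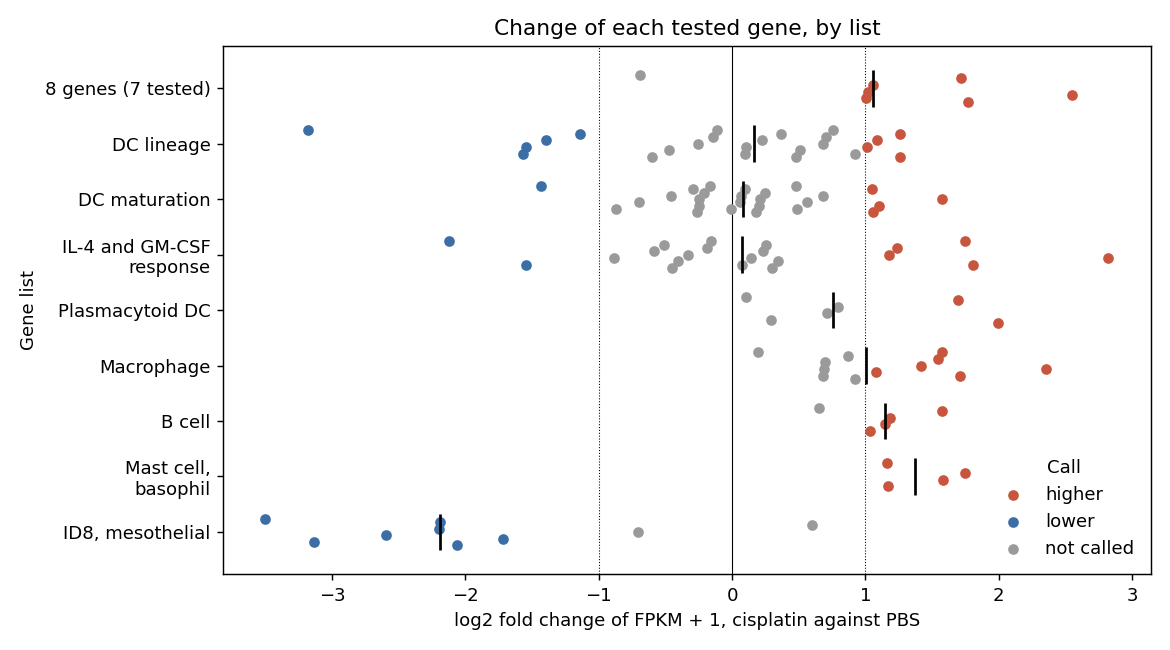
Log2 fold change on log2(FPKM + 1), cisplatin against PBS, of each tested gene by list, with genes called higher in red, called lower in blue, others in grey, list medians as black bars and the thresholds of -1 and 1 dotted. The medians of the dendritic cell lineage, maturation and IL-4 and GM-CSF lists lie at 0.17, 0.085 and 0.074, whereas those of the macrophage, B cell and mast cell lists lie at 1.0, 1.15 and 1.38 and that of the ID8 list at -2.19.

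Markers of other cells that the samples could hold moved with these differences. The summed level of 12 macrophage markers was 1650 to 1660 FPKM with PBS and 4240 to 4400 with cisplatin, 2.6-fold higher, with 6 of 12 called higher (4.67% of all tested genes were). Lyz2 alone made up 80.5% of the cisplatin sum, and the 11 others summed to 486 to 500 and 832 to 846 FPKM, 1.7-fold higher. The median log2 fold change of the list was 1.0. The 5 B cell markers, with Ccr7 a gene that B cells also carry, summed to 205 to 211 and 460 to 469 FPKM, 2.24-fold higher, with 4 of 5 called higher (4.67% of all tested genes). Single markers differed by more or less than these sums, C1qb going from 5.74 to 33.3 FPKM and Cd68 from 156 to 179. The 7 plasmacytoid dendritic cell markers summed to 147 to 152 and 247 to 262 FPKM, of which Ly6d, a gene shared with B cell precursors, took the greater part. They were 1.7-fold higher with Ly6d and 2.48-fold without it. Of 6 tested, 2 were called higher (4.67% of all tested genes). These were Siglech and Ccr9, which rose from 1.69 ± 0.183 to 9.70 ± 0.107 FPKM and from 0.617 ± 0.133 to 4.22 ± 0.218 FPKM (SD, n = 3 each, limma adjusted p = 5.61e-07 and 5.19e-06). Klk1 and Ly6d had log2 fold changes of 0.79 and 0.71 (limma adjusted p = 0.00848 and 4.6e-06), and Cox6a2 and Tcf4 of 0.30 and 0.10 (limma adjusted p = 0.203 and 0.187).

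In the opposite direction, the 11 ID8 and mesothelial markers summed to 1290 to 1390 FPKM with PBS and 235 to 256 with cisplatin, 5.43-fold lower. Of 9 tested, 7 were called lower (11.3% of all tested genes were), and Msln was lower but short of the fold change threshold (log2 fold change -0.70, limma adjusted p = 4.18e-06). Cdh1, the E-cadherin gene, went the other way, from 3.24 ± 0.521 to 5.41 ± 0.529 FPKM (log2 fold change 0.60, limma adjusted p = 0.00238, not called). Krt7 and Igfbp5 were at or near 0. The Y-linked gene Ddx3y went from 8.10 ± 0.520 to 19.2 ± 0.662 FPKM and was called higher, and the other Y-linked genes Kdm5d, Eif2s3y and Uty had log2 fold changes of 0.73, 0.68 and 0.55 and were not called. Xist, which female cells transcribe, went from 42.7 ± 5.35 to 7.79 ± 0.194 FPKM (SD, n = 3 each). Of the 8 genes, Zbtb46 differed in the direction of most ID8 markers and the other 7 in that of the macrophage and B cell markers. The part of these marker differences in the results for the 8 genes was not tested.

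**Figure D4:**
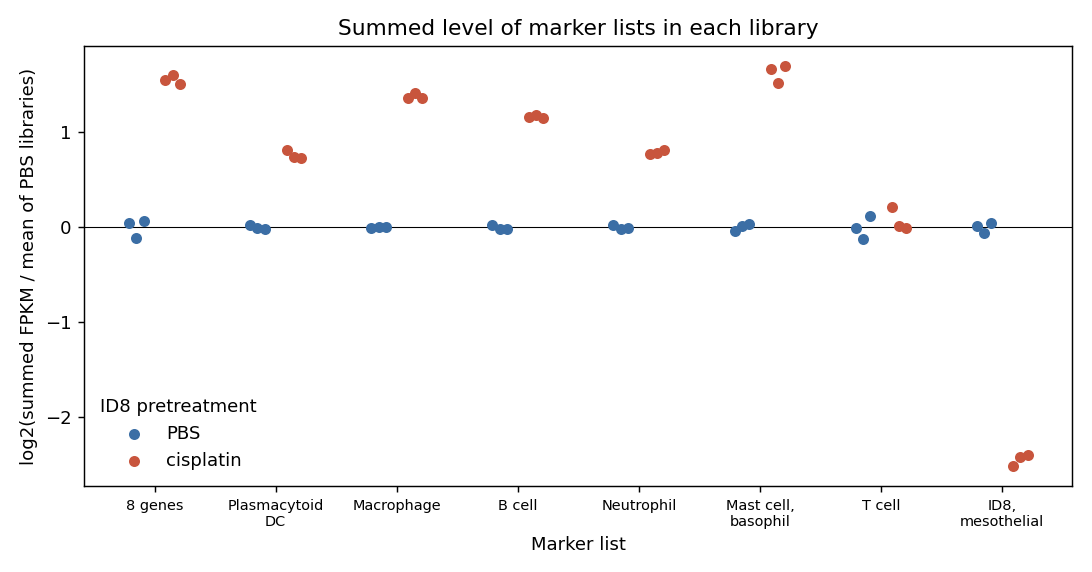
Summed FPKM of each marker list in each library, as the log2 ratio to the mean of the PBS libraries, with PBS in blue and cisplatin in red. The 8 genes (65.6 to 70.0 against 21.4 to 24.1 FPKM) were 2.94-fold higher in sum (4.3-fold without Ccr7), against 2.6-fold for the macrophage list (1.7-fold without Lyz2), 2.24-fold for the B cell list and 3.09-fold for the mast cell and basophil list. T cell markers overlap between the groups, and ID8 markers are lower with cisplatin.

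When the libraries were scaled to equal levels of the Y-linked genes, the median log2 fold change over all tested genes was -0.83. No gene of the 7 tested changed sign. Ccl22 had a log2 fold change of 1.80, Ccl17 of 1.25, Fscn1 of 0.82, Batf3 of 0.62, Flt3 of 0.50, Ccr7 of 0.054 and Zbtb46 of -1.19, and all but Zbtb46 lay above the shifted median. Ccl22 and Ccl17 were the only members called higher under this scaling. The log2 fold changes of Ccr7, Flt3 and Batf3 lay so close to the threshold of 1 that single libraries decided their calls, while their values changed little. Without cisplatin replicate 1 they were 0.993, 0.994 and 0.963, and without PBS replicate 2 they were 0.959, 0.975 and 0.974. In both cases 3 of the 6 genes, Ccl22, Ccl17 and Fscn1, were called higher. The call of Ccr7 was also lost without cisplatin replicate 2 (0.982) and that of Batf3 without PBS replicate 3 (0.974).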

How the data were processed

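RNA of 6 BMDM libraries was sequenced, 3 per group, with groups taken from the treatment labels. The authors deposited gene FPKM values. Their processing notes name fastp, HISAT2 2.0.5, featureCounts 1.5.0-p3 and mm10, whereas the study's methods name LifeScope for alignment and counting. The coordinates of all 8 genes were those of GENCODE M21 (GRCm38). Whether counting used strand is not given in the sources used here.

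Genes with at least 1 FPKM in at least 3 libraries (13441) were transformed to log2(FPKM + 1) and fitted in limma 3.58.1 (R 4.3.3, eBayes with trend) with a single term for group, and p-values were adjusted by the Benjamini-Hochberg method. The study's thresholds were used, although its test was on counts. FPKM multiplied by gene length gave whole reads (tolerance 0.02) for 100% of values under 200 reads. The denominators of the FPKM were 103.7% to 104.1% of the recovered reads with cisplatin and 97.45% to 98.74% with PBS. Intervals cover counting error only, and the floors of 3 reads take the cisplatin reads as exact. The procedure was tested on simulated data.

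The 8 genes, the gene lists and the motifs were chosen with earlier results of these data known, and lists beyond the 8 came from general knowledge. Named were the 8 genes, up to 4 called genes with the largest change in each direction per pathway list, their ligands, receptors and relatives, cell type markers and the 3 nearest profiles of Ccl17 and Ccl22. Of the partners, Icam3 is not listed in the table. Chil3, Nfil3, Gnb1-ps3, Gm26597, Gm22708, Cd83, Retnla, Ccl24, Itgax, Xcr1 and Clec9a fell outside this rule and were chosen after their values were seen. Alternatives were a pseudocount of 0.1, other filters, median-of-ratios, TPM and Y-linked scaling, limma voom on recovered reads, the replicate number as a block and leaving out each library. Sums of marker lists without their most abundant gene were added after seeing the data.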

Additional observations from a re-analysis of the deposited data

How the results depend on the processing

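Of 14 alternatives, all planned with earlier results known, none that gave a value changed the sign of the log2 fold change of a tested member (Cd209a had no such value, and a minimum of 5 FPKM gave one for Ccl22, Ccr7 and Fscn1 alone). Over the lists and all genes, 102 counts of calls stayed within 1.5 times the value reported and 10 did not. Of the members' own log2 fold changes, 68 moved by less than the spread between replicates and 26 by more, and the number of members called moved in 4 alternatives by over 1.5 times. With limma voom on recovered reads, Ccl17 went from 1.77 to 3.43 and Batf3 from 1.06 to 2.53. A pseudocount of 0.1 gave 973 genes called higher and limma voom gave 1227, against 628. Y-linked scaling gave 85 higher and 5181 lower, against 1514, with 1.61% of calls higher in place of 29.3% (39.7% with voom). Under it the dendritic cell lineage list had 0 called higher (limma, 3 positive at an unadjusted p under 0.05, and 6 called higher by voom without that scaling) and 10 lower, the maturation list 1 and 8, and the IL-4 and GM-CSF list 2 and 9. The cause was not tested.

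Leaving out each library gave 622 to 671 genes called higher and 1513 to 1531 lower, and 3 to 6 of the 8 genes called higher. It gave 3 to 4 higher and 5 lower in the lineage list, 3 to 4 and 1 in the maturation list, and 5 and 2 to 3 in the IL-4 and GM-CSF list. Same-numbered libraries did not deviate together (correlations -0.104, -0.0857 and -0.0235), and 0 of 6 libraries correlated best with their own number. With the replicate block 625 genes were called higher and 1515 lower, and the same 6 of the 8 genes were called. Depth limits Ccl17 and Batf3 with PBS and Cd209a in both groups.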

Other observations

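Among the remaining marrow lists, mast cell and basophil markers summed to 47.8 to 50.2 FPKM with PBS and 141 to 159 with cisplatin, and all 4 tested genes were called higher (4.67% of all tested genes were). Cpa3, a carboxypeptidase of mast cell granules, rose from 9.61 ± 1.38 to 34.7 ± 4.70 FPKM (SD, n = 3 each, limma adjusted p = 1.8e-05), and Mcpt8, a basophil protease gene, from 32.6 ± 2.06 to 99.9 ± 7.48 FPKM (limma adjusted p = 1.79e-06). Mast cells also carry Kit.

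Neutrophil markers summed to between 4500 and 4640 FPKM with PBS and to between 7760 and 8020 with cisplatin, and of 5 tested genes 1, Retnlg, was called higher, against the same 4.67% (10.5 ± 2.69 against 35.1 ± 1.04 FPKM, limma adjusted p = 0.000111). T cell markers summed to 9.63 to 11.4 and 10.4 to 12.2 FPKM, with none of 3 tested genes called by limma and 2 with an adjusted p under 0.05 in opposite directions, Trbc2 higher and Lck lower. Of the 5 NK cell markers, which summed to 4.60 to 5.01 and 5.56 to 6.45 FPKM, only Nkg7 was tested (log2 fold change 0.41, limma adjusted p = 0.000944), and the other 4 summed to 1.07 to 1.27 and 0.666 to 1.18 FPKM.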
